A study of Mus musculus with 24 samples.

Results

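The genes described here lie around Ptprc on mouse chromosome 1. Ptprc encodes CD45, the receptor tyrosine phosphatase of blood cells whose CD45.1 and CD45.2 forms were used to sort the cells by donor. Members were chosen by position: a gene start from 128062861 to 148175305 on chromosome 1 of GRCm38, 10 Mb to each side of Ptprc, and a mean of at least 10 counts over the 24 libraries. Btg2, Phlda3, Mcm6, Dars and Cxcr4 were left out by name. Of 230 rows in the interval and 38215 in the table, 94 were members and 131 fell below the count minimum, of which 51 were at 0 in every library. The members were 85 protein coding genes, 5 lincRNAs, 1 antisense gene and 3 pseudogenes, and the interval held 0.542% of all counts. A test was possible for 93, since the row named ENSMUSG00000073564, with a mean of 10 counts, did not pass the expression filter. Just below the minimum lay Gm15445 (mean 7.12 counts) and Gm4793 (8.56), and the next member above it was Prelp (10.6). Positions are given as distance from the start of Ptprc, negative before it. The outermost members were R3hdm1 at -9.96 Mb and Gm5263 at 8.36 Mb, and the nearest genes outside were Rpl28-ps1 at -10.02 Mb and Gm15443 at 10.96 Mb.

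Polyadenylated RNA was sequenced in 24 libraries of the most primitive blood stem cells (LT-HSCs), sorted from the marrow of 12 chimeric mice. The hosts were lethally irradiated C57BL/6J mice carrying both Ptprc alleles, and each received marrow of a CD45.1 donor with normal Jak2 (labelled C57Bl/6N Ptprca) mixed with marrow of a CD45.2 donor (labelled C57Bl/6N Jak2V617F/+ Tg(E2A-cre)). Jak2V617F is an activating mutation of a cytokine receptor kinase found in myeloproliferative neoplasms, and the donor carried it as a floxed allele (Jak2fl-V617F/+) with a Cre transgene named for the E2A promoter. Each host gave a wild-type library from CD45.1+ CD45.2- cells and a Jak2V617F library from CD45.1- CD45.2+ cells, both sorted as lineage-negative, Sca1+, cKit+, CD150+ and CD48-. The interferon, in a long-acting pegylated form (pegIFN), was injected under the skin of 6 mice at 600 ng a week, in 5 doses over 4 weeks. The other 6 mice had vehicle (0.1% bovine serum albumin in buffered saline), and the marrow was sorted 48 hours after the final injection. This made 4 groups of 6 libraries: wild-type vehicle, Jak2V617F vehicle, wild-type pegIFN and Jak2V617F pegIFN. The sources used here do not give the number of donors, their sex or age, the age of the hosts or the strain from which the CD45.1 allele came.

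A congenic strain carries a chosen allele on the genome of another strain, and repeated backcrossing leaves a stretch of the original donor's chromosome on both sides of that allele. The CD45.1 allele of C57BL/6 congenic mice was brought in from another strain in this way, so genes near Ptprc can differ in sequence and in expression between CD45.1 and CD45.2 cells that differ in no other gene. In the present design the Jak2 genotype, the CD45 allele with its flanking genes, the Cre transgene and, by the sex-linked genes described next, the sex of most donors differ together, so for any member these cannot be told apart as sources of a difference between wild-type and Jak2V617F cells. The comparison of pegIFN with vehicle has the same labelled donor type on both sides, though sex-linked RNA differed there as well.

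Totals per library ran from 24.6 to 39.7 M counts. The libraries of the 2 genotypes also differed in sex-linked RNA: Xist had a mean of 2039 CPM (counts per 1e+06, scaled with trimmed-mean factors) in wild-type vehicle and 26.5 CPM in Jak2V617F vehicle libraries, and summed counts of 4 Y-linked genes were higher in the Jak2V617F library in each mouse but one. The exception was the mouse of wild-type vehicle replicate 4, whose wild-type library had 599.8 CPM of Xist and Y-linked RNA at 112% of the Jak2V617F vehicle mean. In the other wild-type vehicle libraries Y-linked RNA was at 9.09% to 34.1% of that mean, and in wild-type pegIFN libraries at 0.975% to 10.2%. In Jak2V617F pegIFN replicate 1, Xist was 653.9 CPM against 40.8 to 110 CPM in the other 5 of its group. Wild-type vehicle replicate 4 and Jak2V617F pegIFN replicate 1 stand apart. Leaving them out does not remove the Y-linked RNA of the other wild-type vehicle libraries. Counts of called members between the genotypes are given with and without the 2 libraries, as is a gene's value where its call changed. The genes that mark the gate (Kit, Ly6a, Slamf1, Procr, Fgd5, Hlf and Mecom) were detected, with a summed level of 625 to 2040 CPM. T cell markers were near 0 (up to 0.671 CPM summed) and B cell markers reached 8.29 CPM, whereas granulocyte and monocyte markers reached 1035 CPM in a Jak2V617F vehicle library and 453 CPM in a wild-type one. Under pegIFN these granulocyte and monocyte markers ran from 346 to 754 CPM in Jak2V617F and from 62.0 to 268 CPM in wild-type libraries, without overlap. The erythroid markers matched in the table, 3 of 4, ran from 36.9 to 253 CPM in vehicle libraries and from 0.823 to 15.6 CPM in pegIFN libraries. Of the 7 lists of markers, granulocyte and monocyte genes had 2 of 5 called higher in Jak2V617F under pegIFN, the gate's genes had 1 of 7 called lower in each treatment, and the megakaryocyte list and Cd48, the antigen gated against, had 1 gene each called higher under vehicle. The part of other cells in the members' values was not tested.

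Sequences at the starts of members that differed between the genotypes are shown first, because a promoter is inherited with the interval. RefSeq promoters of GRCm38.p6 were found for 69 of the 94 members and for 9 of the 12 called in both genotype comparisons (below). The first pair are the 250 bases before the start of Ube2t (chr1:134962315-134962564, plus strand) and of Rnpep (chr1:135284085-135284334, minus strand), both higher in Jak2V617F cells. Neither holds a match to TTCNNNGAA, the motif bound by STAT factors, or to GAAANNGAA, a core of interferon-response elements, on either strand. The second pair are windows of 30 bases around the matches before a RefSeq start of Tmem9 (chr1:136017752-136017781, plus strand) and of Snrpe (chr1:133610281-133610310, minus strand). Capitals mark the matches, which lie 239 to 231 bases before the Tmem9 start and 15 to 7 bases before the Snrpe start. Both windows lie at least in part within a gene as annotated: 11 of the 30 bases at Snrpe are in a GENCODE exon, and the window at Tmem9 lies inside the Tmem9 row of the table, before a later start.
Ube2t: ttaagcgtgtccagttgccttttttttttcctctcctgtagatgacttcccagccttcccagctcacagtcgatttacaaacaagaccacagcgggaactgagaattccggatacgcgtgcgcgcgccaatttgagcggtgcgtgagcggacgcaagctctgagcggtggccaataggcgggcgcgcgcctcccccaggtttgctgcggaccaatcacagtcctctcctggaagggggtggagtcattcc
Rnpep: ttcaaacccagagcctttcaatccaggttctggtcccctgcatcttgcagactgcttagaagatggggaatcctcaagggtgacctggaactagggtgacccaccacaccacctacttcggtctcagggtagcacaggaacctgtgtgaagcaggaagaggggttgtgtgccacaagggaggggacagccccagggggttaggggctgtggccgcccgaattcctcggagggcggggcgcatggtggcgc
Tmem9: ctaaaatgctTTCTCTGAAacagtaagata
Snrpe: cgacgaccactgcacTTCCGTTTCcgggtc

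These are reference sequences, and the alleles of the donors were not read. The STAT motif was found in the promoters (250 bases before to 50 after a start) of 5 of 67 member genes (7.46%), beside 9.55% of 27025 genes. The interferon motif was found in 7 of 67 (10.4%), beside 9.76%. Among the 9 called members with a promoter, 2 held the STAT motif (Tmem9 and Sox13) and 2 the interferon motif (Snrpe and Kif14). A match is a description of letters and shows no binding.

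Between the genotypes, members were called more often than genes in general, in both directions equally. Nearly all of the calls lay on the side before Ptprc, which holds 76 of the 93 tested members. Called means an adjusted p under 0.05 in edgeR's quasi-likelihood test with Benjamini-Hochberg adjustment over 15879 genes. Under vehicle, 26 of 93 members (28.0%) were called in Jak2V617F against wild-type cells, beside 12.7% of all genes. Of these, 13 were higher and 13 lower (14% each), beside 8.48% of all genes higher and 4.23% lower. Under pegIFN, in other mice, 16 members (17.2%) were called, beside 8.59% of all genes, with 8 higher and 8 lower (8.60% each), beside 4.16% and 4.43%. The 2 comparisons share no library and no mouse. In bulk samples such as these, fewer cells of a type and less RNA per cell cannot be told apart. In both comparisons, with the same sign, 12 members (12.9%) were called, beside 3.29% of all genes. These were 6 higher (6.45%, beside 1.95% of all genes) and 6 lower (6.45%, beside 1.34%). Of the 6 lower, AC162449.1 and Syt2 met the count minimum only through their wild-type libraries. Members that enter in this way can come out only as lower in Jak2V617F.

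Medians of the members stayed near 0 in the genotype comparisons, at -0.02 (log2 fold change) under vehicle and 0.02 under pegIFN, beside -0.01 and 0.01 over all genes. The median size of the difference, ignoring sign, was 0.19 under vehicle and 0.14 under pegIFN, beside 0.17 and 0.14 over all genes. Of the 26 members called under vehicle, 24 had the same sign under pegIFN and 12 were called there again (46.2%), beside 25.9% of all genes called under vehicle. Over all 93 members, 60 had the same sign in both comparisons (64.5%), beside 69.4% of all genes. The Spearman correlation of the log2 fold changes was 0.579 across the 93 members and 0.467 across all genes, given as a description since genes are not independent and the 2 comparisons contrast the same donor types.

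**Figure D1:**
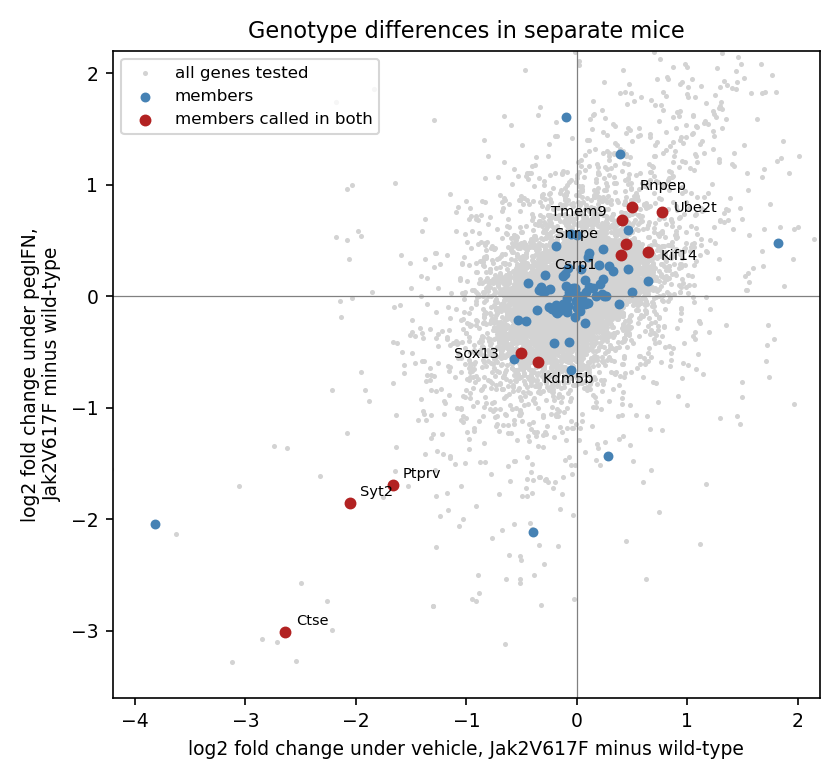
Log2 fold change of Jak2V617F against wild-type cells under vehicle (horizontal) and under pegIFN (vertical); grey points are all tested genes, blue points the members and red points 11 of the 12 members called in both. AC162449.1, fitted at -8.65 and -3.99, and some other genes lie beyond the axes; the red points lie in the lower left and upper right only, because the same sign was required.

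Without the 2 libraries that stand apart, 21 members (22.6%) were called under vehicle, beside 6.27% of all genes, and 16 (17.2%) under pegIFN, beside 4.10%. In both, 12 members (12.9%) were called, beside 1.15% of all genes, and 11 of them were among the 12 above. Ranges of the genotypes then did not overlap for 11 members under vehicle (11.8%), beside 3.30% of all genes, for 16 under pegIFN (17.2%), beside 4.00%, and for 7 on the same side in both (7.53%), beside 0.296%. In the 10 mice that remain, the libraries of 20 members (21.5%) differed in one direction in all mice, beside 12% of all genes. With the mouse as a block, which compares the 2 libraries of each mouse, 41 members (44.1%) were called under vehicle, beside 31.1% of all genes, and 32 (34.4%) under pegIFN, beside 24.6%. In both, 20 (21.5%) were called, beside 13.3%.

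The 12 members called in both comparisons lay 9.29 to 1.59 Mb before Ptprc. Cathepsin E, encoded by Ctse, is an aspartic protease of the endosomal compartment and is found in immune and epithelial cells. Of the 94 members it had the largest difference between genotype means in CPM, in either treatment. In wild-type vehicle libraries its level ran from 98.8 to 238 CPM (median 211), and in Jak2V617F vehicle libraries from 20.6 to 47.9 CPM (median 31.2). In wild-type pegIFN libraries it ran from 262 to 434 CPM (median 350.1), and in Jak2V617F pegIFN libraries from 24.6 to 97.5 CPM (median 34.7). The highest Jak2V617F library was below the lowest wild-type library in each treatment, and the Jak2V617F library was lower in 12 of 12 mice. The log2 fold change was -2.64 (SE 0.29, adjusted p = 5.71e-05) under vehicle and -3.01 (SE 0.30, adjusted p = 4.33e-06) under pegIFN. The lowest wild-type value (98.8 CPM) and the highest Jak2V617F value (97.5 CPM) belonged to the 2 libraries that stand apart on Xist. Without them the log2 fold change of Ctse was -2.77 (adjusted p = 4.80e-09) under vehicle and -3.42 (adjusted p = 3.55e-10) under pegIFN.

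**Figure D2:**
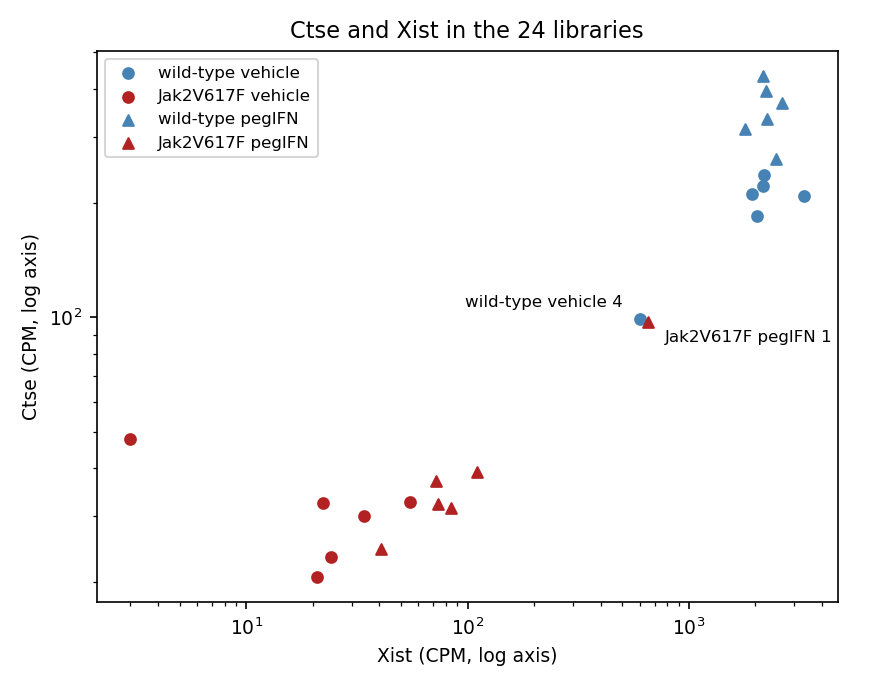
Ctse against Xist in each of the 24 libraries, both in CPM on log axes; circles are vehicle and triangles pegIFN libraries, blue wild-type and red Jak2V617F. Wild-type libraries lie at the upper right and Jak2V617F libraries at the lower left, with wild-type vehicle replicate 4 (Ctse 98.8 CPM) and Jak2V617F pegIFN replicate 1 (97.5 CPM) between them on both axes.

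AC162449.1 is a long intergenic non-coding RNA of unknown role, named Gm26686 in GENCODE M21, at chr1:128770599-128774421 on the minus strand, where that annotation has no other gene. It had 304 counts over the 6 wild-type vehicle libraries, from 0.706 to 2.47 CPM with a median of 1.69. The 6 Jak2V617F vehicle libraries had 0 counts, so the pooled level was at least 91.9-fold lower, with a floor of 3 counts over the group. Under pegIFN the wild-type libraries had 100 counts, from 0.103 to 0.764 CPM, and the Jak2V617F libraries 5 counts, from 0 to 0.061 CPM. No Jak2V617F library reached the lowest wild-type library in either treatment. The adjusted p was 7.54e-06 under vehicle and 6.04e-04 under pegIFN (log2 fold change -3.99, SE 0.62).

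Ptprv encodes a receptor-type tyrosine phosphatase, of the same broad family as CD45, and lies 2.95 Mb before Ptprc. The row of the table covers chr1:135111169-135112306 on the minus strand and overlaps the antisense gene Gm10535. With no stated use of strand the reads of the pair cannot be told apart. GENCODE M21 does not list the identifier of this row, and its own Ptprv entry, a processed transcript, overlaps the row on the same strand. The level of the row ran from 1.85 to 3.12 CPM (median 2.05) in wild-type vehicle and from 0.350 to 0.994 CPM (median 0.695) in Jak2V617F vehicle libraries. Under pegIFN it ran from 1.92 to 2.72 CPM (median 2.35) in wild-type and from 0.581 to 0.915 CPM (median 0.698) in Jak2V617F libraries. The genotypes did not overlap in either treatment. The log2 fold change was -1.67 (SE 0.21, adjusted p = 9.96e-05) under vehicle and -1.69 (SE 0.21, adjusted p = 4.14e-05) under pegIFN. Unlike Ctse, the 2 libraries that stand apart lay within the range of the others of their group, at 2.09 and 0.725 CPM.

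Ube2t encodes a ubiquitin-conjugating enzyme of the Fanconi anaemia pathway, which repairs crosslinked DNA. Its level ran from 7.70 to 11.8 CPM (median 10.3) in wild-type vehicle and from 13.4 to 19.6 CPM (median 17.1) in Jak2V617F vehicle libraries. Under pegIFN it ran from 9.53 to 12.3 CPM (median 10.5) in wild-type and from 15.5 to 21.4 CPM (median 17.9) in Jak2V617F libraries. The lowest Jak2V617F library was above the highest wild-type library in both treatments. The log2 fold change was 0.77 (SE 0.11, adjusted p = 3.41e-04) under vehicle and 0.76 (SE 0.11, adjusted p = 1.59e-04) under pegIFN.

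Tmem9, which encodes a membrane protein of late endosomes and lysosomes, separated the genotypes as well. It ran from 38.2 to 48.4 CPM (median 44.6) in wild-type vehicle and from 51.5 to 70.5 CPM (median 57.5) in Jak2V617F vehicle libraries. Under pegIFN it ran from 38.3 to 41.5 CPM (median 40.6) in wild-type and from 57.7 to 69.1 CPM (median 64.8) in Jak2V617F libraries. No library of a genotype reached into the range of the other. The log2 fold change was 0.41 (SE 0.07, adjusted p = 1.01e-03) under vehicle and 0.69 (SE 0.07, adjusted p = 9.36e-07) under pegIFN.

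Ranges of the genotypes did not overlap for 8 members under vehicle (8.60%), beside 2.91% of all genes, and for 15 under pegIFN (16.1%), beside 3.46%. In both treatments with the same direction they did not overlap for 5 members (5.38%), beside 0.195% of all genes. These 5 were Ctse, Ptprv and, with the count minimum met only through its wild-type libraries, AC162449.1, lower in Jak2V617F, and Ube2t and Tmem9, higher. In all, 31 genes separated the genotypes in this way, so the members made up 16.1% of them, whereas they made up 0.586% of the genes tested. No other gene of chromosome 1 was among the 31, and 2 of the rest, Xist and Kdm6a, were X-linked. Rfx3, lower in Jak2V617F, lies within 10 Mb of Jak2 on chromosome 19. Within mice, the Jak2V617F library lay on the same side of the wild-type library in all 12 mice for 17 of 93 members (18.3%), beside 10.5% of all genes.

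**Figure D3:**
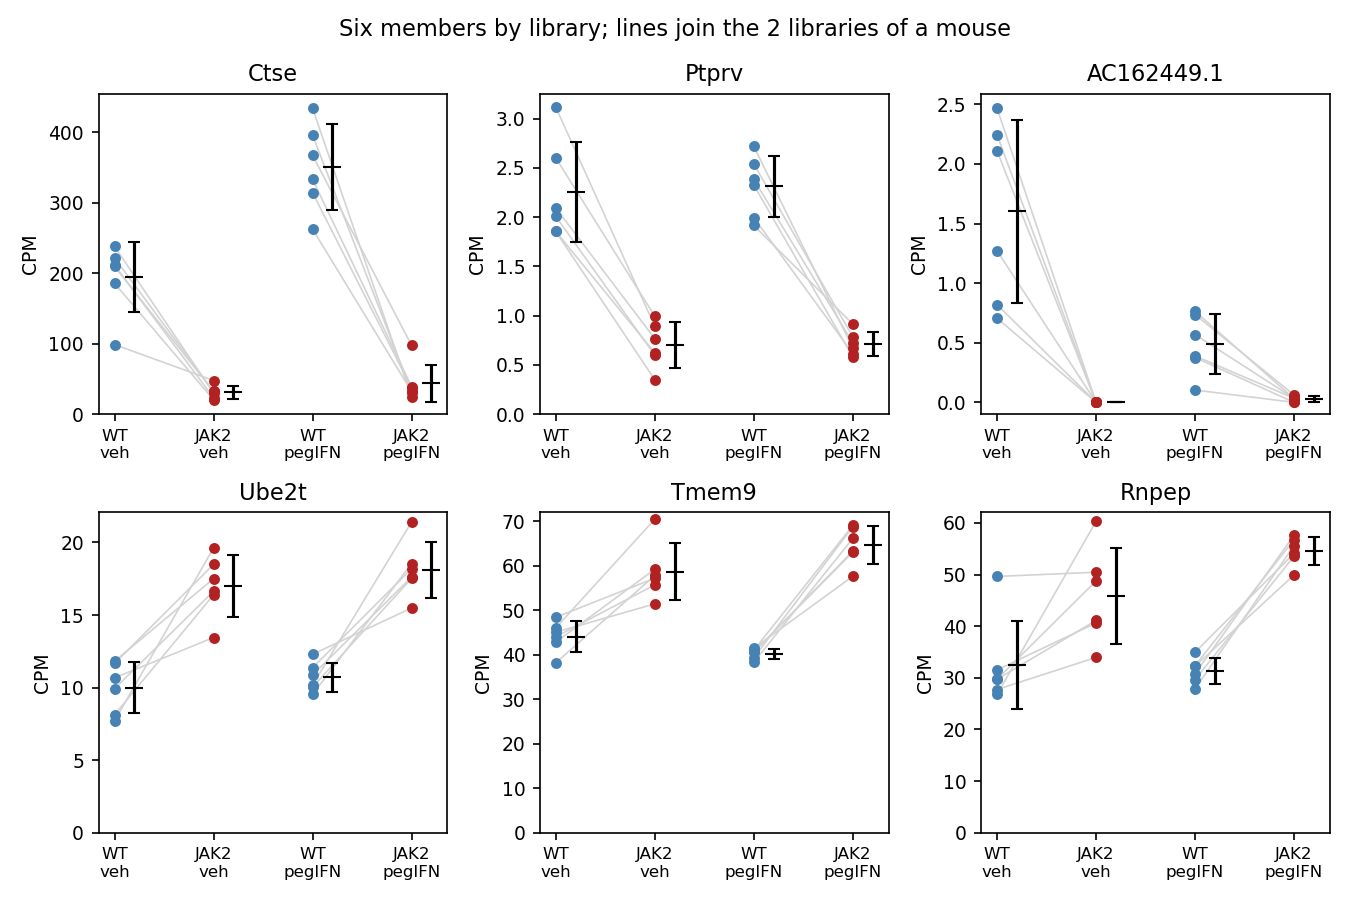
Level in CPM of Ctse, Ptprv, AC162449.1, Ube2t, Tmem9 and Rnpep in each library; blue points are wild-type and red points Jak2V617F libraries, grey lines join the 2 libraries of a mouse, and black marks give the mean ± SD of 6 libraries. All lines of the upper panels fall and all lines of the lower panels rise, with the flattest line of Rnpep in the mouse of wild-type vehicle replicate 4 (49.6 CPM).

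Of the other members higher in both comparisons, Rnpep encodes aminopeptidase B, which removes basic residues from peptides. It ran from 26.8 to 49.6 CPM (median 29.7) in wild-type vehicle and from 34 to 60.3 CPM (median 44.9) in Jak2V617F vehicle libraries, and from 27.9 to 35.0 CPM against 49.9 to 57.6 CPM under pegIFN. The overlap under vehicle came from wild-type vehicle replicate 4, one of the libraries that stand apart. The log2 fold change was 0.50 (SE 0.13, adjusted p = 0.0139) under vehicle and 0.80 (SE 0.13, adjusted p = 3.89e-04) under pegIFN. The lincRNA AC130277.1 overlaps Rnpep on the opposite strand. It had a log2 fold change of 1.27 under pegIFN (adjusted p = 3.89e-04) and 0.39 under vehicle (adjusted p = 0.188; 0.60, adjusted p = 0.0419, without the 2 libraries that stand apart), and reads of these genes cannot be told apart here.

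Kif14, a kinesin motor of the spindle midzone needed for cytokinesis, ran from 25.5 to 41 CPM in wild-type and from 39.8 to 58.0 CPM in Jak2V617F vehicle libraries. Under pegIFN it ran from 32.0 to 39.2 CPM against 41.3 to 48.6 CPM. The difference was 0.65 (log2; SE 0.10, adjusted p = 7.00e-04) under vehicle and 0.40 (SE 0.10, adjusted p = 0.0158) under pegIFN. The ranges overlapped under vehicle only, and the Jak2V617F library was higher in 12 of 12 mice. Snrpe, a core protein of the spliceosomal small ribonucleoproteins, had log2 fold changes of 0.45 (adjusted p = 0.0105) and 0.47 (adjusted p = 0.0103), and was higher in 11 of 12 mice. Csrp1, a LIM domain protein that binds actin-linked proteins, had log2 fold changes of 0.40 (adjusted p = 0.00887) and 0.37 (adjusted p = 0.0184), and was higher in 12 of 12 mice.

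Of the other members lower in both, Kdm5b encodes a demethylase of lysine 4 of histone H3. It ran from 82.2 to 127 CPM in wild-type and from 70.2 to 99.3 CPM in Jak2V617F vehicle libraries, and from 92.5 to 124 CPM against 62.6 to 80.6 CPM under pegIFN. The groups overlapped under vehicle and not under pegIFN, with log2 fold changes of -0.35 (SE 0.09, adjusted p = 0.0175) and -0.59 (SE 0.09, adjusted p = 3.86e-04). Under vehicle the call of Kdm5b ended without the 2 libraries that stand apart (-0.28, adjusted p = 0.0661). Sox13, a transcription factor of the SoxD group, had log2 fold changes of -0.51 (adjusted p = 0.00704) and -0.51 (adjusted p = 0.00918). Syt2, a calcium sensor of vesicle fusion best known from neurons, had low levels, with 167 and 198 counts over the wild-type groups and 36 and 49 over the Jak2V617F groups under vehicle and pegIFN. Its log2 fold changes were -2.05 (SE 0.52, adjusted p = 0.0129) and -1.85 (SE 0.50, adjusted p = 0.0248). Each of these 3 genes was lower in the Jak2V617F library of 12 of 12 mice.

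A further 14 members were called under vehicle only and 4 under pegIFN only, and the interaction test below is the test of whether the treatments differ. Over all 15879 genes, 2018 were called under vehicle, 1364 under pegIFN and 522 in both with the same sign. Whether members called in only 1 comparison exceed the share over all genes was not tested. Etnk2, an ethanolamine kinase of phospholipid synthesis, had 184 counts over the wild-type vehicle group and 11 over the Jak2V617F vehicle group, without overlap of the libraries. Etnk2 too met the count minimum only through its wild-type libraries. Its log2 fold change was -3.82 (SE 0.66, adjusted p = 0.00202) under vehicle and -2.04 (SE 0.67, adjusted p = 0.0558) under pegIFN. Uchl5, a deubiquitinase of the proteasome and the one called member after Ptprc, had log2 fold changes of 0.29 (adjusted p = 0.0331) and 0.27 (adjusted p = 0.058), higher in 12 of 12 mice. Without the 2 libraries that stand apart Uchl5 was not called under vehicle (0.25, adjusted p = 0.0986). Ddx59, an RNA helicase, had log2 fold changes of -0.21 (adjusted p = 0.185) and -0.42 (adjusted p = 0.0148), lower in 12 of 12 mice.

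Ptprc itself was not called between the genotypes. Its level ran from 215 to 304 CPM (median 243) in wild-type and from 191 to 241 CPM (median 209) in Jak2V617F vehicle libraries. Under pegIFN it ran from 135 to 181 CPM (median 157) in wild-type and from 117 to 200 CPM (median 145) in Jak2V617F libraries. The groups overlapped in each treatment, with log2 fold changes of -0.25 (SE 0.11, adjusted p = 0.118) and -0.10 (SE 0.11, adjusted p = 0.616). With the mouse as a block the vehicle difference was -0.24 with an adjusted p of 0.00606, a call gained. Of the members nearest to Ptprc, Kif14, at -1.59 Mb, was called in both comparisons, as described above. Zfp281, Nek7 and 2310009B15Rik were not called. Zfp281, a zinc finger transcription factor 1.44 Mb before Ptprc, had log2 fold changes of -0.16 (adjusted p = 0.100) and -0.14 (adjusted p = 0.200). Nek7, a kinase that takes part in the NLRP3 inflammasome, lies 0.42 Mb after Ptprc and had log2 fold changes of -0.07 (adjusted p = 0.525) and 0.04 (adjusted p = 0.807). For 2310009B15Rik, 0.79 Mb after Ptprc, they were 0.11 (adjusted p = 0.698) and 0.09 (adjusted p = 0.811).

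By position, 25 of 76 tested members before Ptprc (32.9%) were called under vehicle and 16 (21.1%) under pegIFN. After Ptprc, 1 of 16 was called under vehicle and 0 under pegIFN. From 5 to 2 Mb before Ptprc, 15 of 33 (45.5%) and 11 of 33 (33.3%) were called. From 10 to 5 Mb before it, 9 of 37 (24.3%) and 3 of 37 (8.11%) were called, and from 2 to 0 Mb before it, 1 of 6 and 2 of 6. Of the 10 members 5 to 10 Mb after Ptprc, 1 was called under vehicle and 0 under pegIFN. The side before Ptprc holds 76 of the tested members, so the side after it gives a coarse share. Without the 2 libraries that stand apart 0 of 16 after Ptprc were called in either comparison, and from 5 to 2 Mb before it 14 and 11 of 33 were. With the mouse as a block, 3 and 5 of the 16 members after Ptprc were called under vehicle and pegIFN. That fit called 31.1% and 24.6% of all genes.

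**Figure D4:**
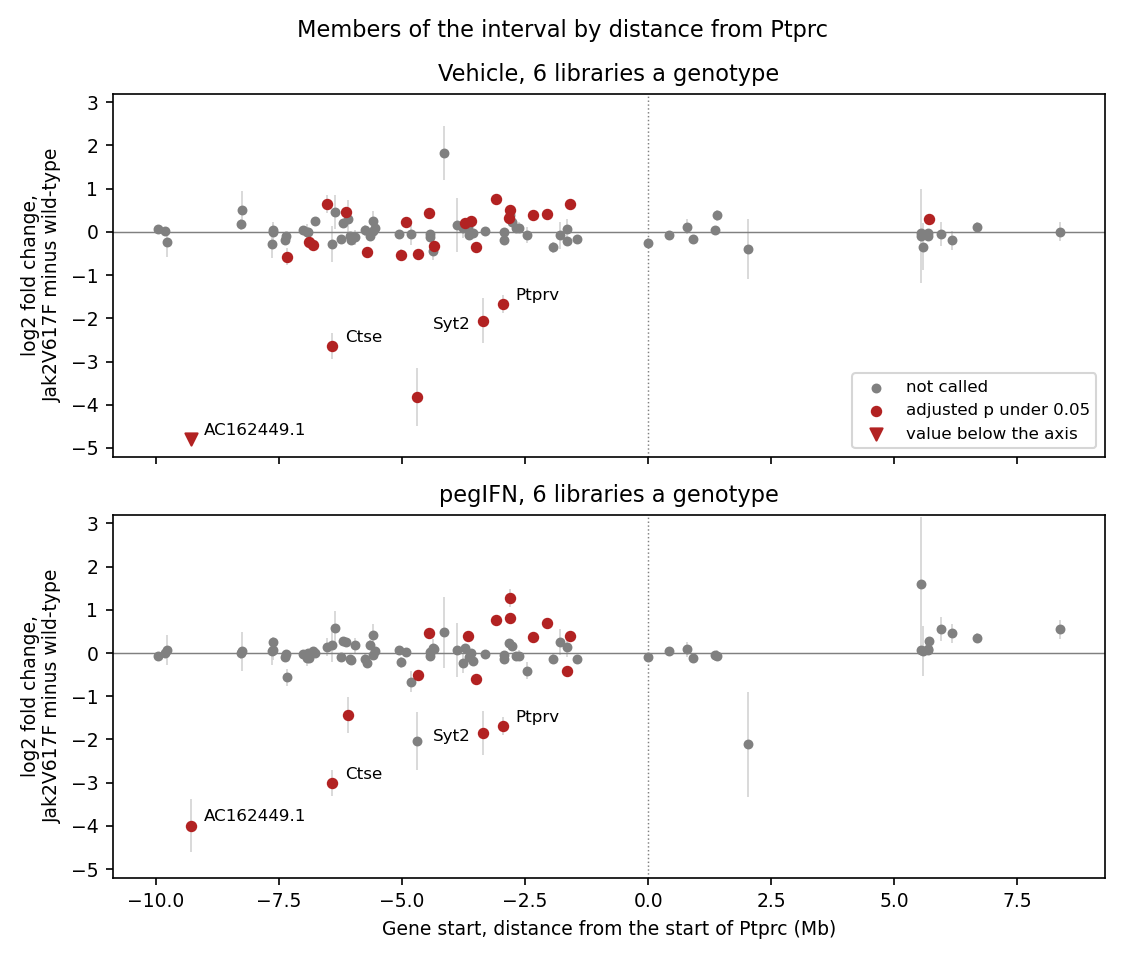
Log2 fold change of Jak2V617F against wild-type cells (± SE) for each of the 93 tested members by distance of its start from that of Ptprc, under vehicle (top) and pegIFN (bottom); red points have an adjusted p under 0.05. The red points lie before Ptprc, except Uchl5 at 5.71 Mb under vehicle, and the triangle stands for AC162449.1, fitted at -8.65.

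Elsewhere on chromosome 1, 92 of 795 tested genes outside the interval (11.6%) were called under vehicle and 61 (7.67%) under pegIFN, close to the shares over all genes. Around Jak2 on chromosome 19, 14 of 97 genes within 10 Mb (14.4%) and 11 of 97 (11.3%) were called. In windows of 20 Mb along every chromosome with at least 30 tested genes, chosen after the data were seen, the window from 120 to 140 Mb of chromosome 1 had the highest share of 135 in both comparisons. Its share was 28.3% under vehicle, with 27.1% in the next window, and 18.9% under pegIFN, with 18.4% in the next. The medians over windows were 12.4% and 8.80%. Shifted by 10 Mb, the window from 130 to 150 Mb, which reaches past Ptprc on both sides, ranked 2 of 136 in both comparisons (27.4% and 16.8%). Other stretches of the genome thus had shares near that of the interval.

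**Figure D5:**
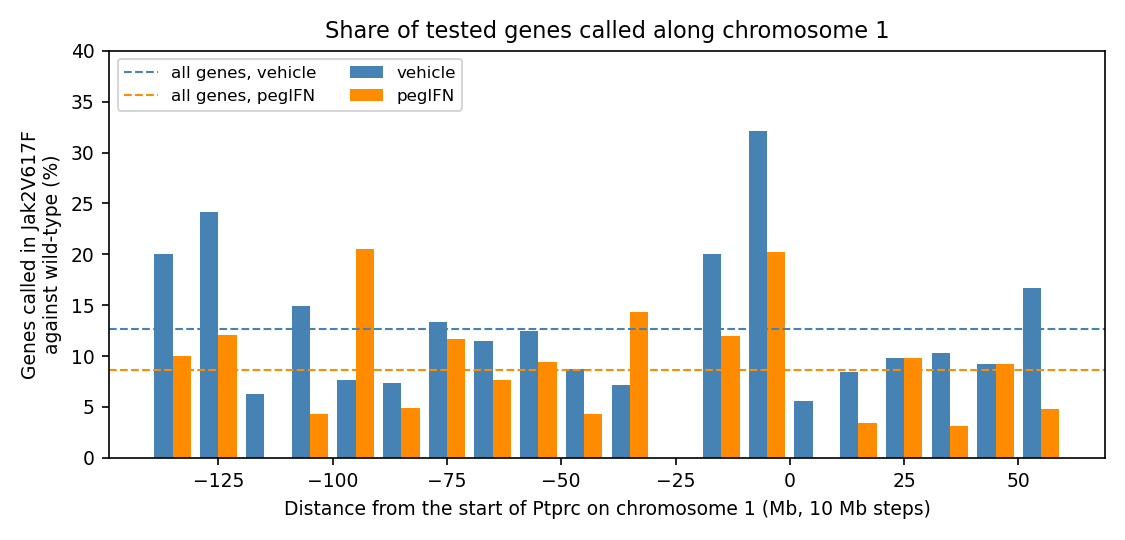
Share of tested genes called in Jak2V617F against wild-type cells in steps of 10 Mb along chromosome 1, by distance from Ptprc, for steps with at least 10 tested genes; blue bars are vehicle and orange bars pegIFN, and dashed lines are the shares over all genes (12.7% and 8.59%). The step just before Ptprc, with the 5 genes left out by name and other rows below the member minimum included, has the highest bar under vehicle (32.1%), and under pegIFN its 20.2% is close to the 20.5% of the step 100 to 90 Mb before Ptprc.

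By role, the calls were spread over the gene groups of the interval. The shares over all genes beside which these small groups stand were 8.48% higher and 4.23% lower under vehicle, and 4.16% higher and 4.43% lower under pegIFN, and with 2 to 21 members a group no group was compared with them by a test. Of 5 tested genes of CD45 and lymphoid membrane signalling (Ptprc, Rassf5, Ptpn7, Ikbke and Lax1), 2 were lower in Jak2V617F under vehicle and 0 were called under pegIFN. These were Ikbke, a kinase of the innate pathway to interferon production (-0.31, adjusted p = 0.0124), and Rassf5, a Rap1 effector of lymphocyte adhesion (-0.23, adjusted p = 0.0309). Rassf5 was not called without the 2 libraries that stand apart (-0.19, adjusted p = 0.0919). Of 14 genes of RNA, translation and protein turnover, 5 were higher and 1 lower under vehicle, and 2 higher (Rnpep and Snrpe) and 2 lower (Ctse and Ddx59) under pegIFN. Of 13 rows of chromatin and transcription genes, 2 were higher (Ube2t and Nucks1) and 2 lower (Kdm5b and Sox13) under vehicle, and 1 higher and 2 lower under pegIFN.

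Of 7 rows of spindle and cell division genes, 2 were higher under vehicle (Kif14 and Fam72a) and 1 (Kif14) under pegIFN. Fam72a, an antagonist of uracil repair had log2 fold changes of 0.65 (adjusted p = 0.0425) and 0.14 (adjusted p = 0.731), and without the 2 libraries that stand apart the first was 0.53 (adjusted p = 0.113). Of 13 kinases and their regulators, 1 was higher and 2 lower under vehicle and 0 were called under pegIFN. The one that was higher was Ppp1r15b, which directs a phosphatase to the translation factor eIF2 alpha (0.23, adjusted p = 0.00649). Csrp1 and Prelp, the pair of muscle and epithelial genes tested, had 1 called higher in each comparison, Csrp1. Of 21 members in no group, 1 was higher and 4 lower under vehicle, and 1 higher and 3 lower under pegIFN. Of 13 membrane, transport and vesicle genes, 1 was higher and 2 lower under vehicle, and 2 higher (Tmem9 and Cyb5r1) and 1 lower (Slc45a3) under pegIFN. Cyb5r1, of the cytochrome b5 reductase family, had log2 fold changes of 0.11 (adjusted p = 0.327) and 0.39 (adjusted p = 0.00329). None of the 3 regulators of G protein signalling was called in a genotype comparison by edgeR without the block, nor was Cd55, a complement regulator (0.04, adjusted p = 0.861, and 0.25, adjusted p = 0.241).

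In the treatment comparison, where the labelled donor type is the same on both sides, members were called about as often as all genes. In wild-type cells 50 of 93 (53.8%) were called, 20 higher and 30 lower with pegIFN, beside 56.8% of all genes, 28.2% higher and 28.7% lower. In Jak2V617F cells 38 (40.9%) were called, 13 higher and 25 lower, beside 44% of all genes, 21.7% higher and 22.3% lower. These comparisons share their vehicle and pegIFN libraries with the genotype comparisons. Sex-linked RNA also differed in them: with pegIFN, 4 of 5 sex-linked genes, the Y-linked ones, were called lower in wild-type cells. Their log2 fold changes ran from -3.07 to -2.45, and Xist was higher in Jak2V617F cells (2.70, adjusted p = 0.00192). The part of this difference in the members' values was not tested.

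Slc45a3, a solute carrier, had the largest increase by fold change of the 93 members in wild-type cells. It ran from 1.94 to 12.3 CPM (median 2.65) in wild-type vehicle and from 26.6 to 67.7 CPM (median 51.0) in wild-type pegIFN libraries. In Jak2V617F cells it ran from 1.71 to 11.5 CPM (median 4.42) with vehicle and from 8.81 to 22.3 CPM (median 19.9) with pegIFN. The treatments did not overlap in wild-type cells and overlapped in Jak2V617F cells through replicate 3 of each group. The log2 fold change with pegIFN was 3.59 (SE 0.47, adjusted p = 1.96e-06) in wild-type and 1.87 (SE 0.45, adjusted p = 0.00204) in Jak2V617F cells. Between the genotypes it was -1.43 (SE 0.42, adjusted p = 0.0405) under pegIFN, without overlap of the libraries, and the call ended without the 2 libraries that stand apart (-1.45, adjusted p = 0.0745). Ctse rose with pegIFN in wild-type cells (0.85, SE 0.28, adjusted p = 0.0116) and in Jak2V617F cells the log2 fold change was 0.49 (adjusted p = 0.171). Fam72a rose in wild-type cells (0.90, adjusted p = 7.55e-04), with 0.39 (adjusted p = 0.128) in Jak2V617F cells.

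Ptprc fell with pegIFN in both genotypes, with log2 fold changes of -0.66 (SE 0.11, adjusted p = 1.26e-05) in wild-type and -0.52 (SE 0.11, adjusted p = 4.36e-04) in Jak2V617F cells. In wild-type cells the vehicle and pegIFN libraries did not overlap (215 to 304 against 135 to 181 CPM), and in Jak2V617F cells they did. Of its group, 4 of 5 fell and Ptpn7, a phosphatase of MAP kinases in blood cells, rose in both genotypes. Lax1, a membrane adaptor of lymphocyte receptors, fell by 2.01 (log2; adjusted p = 4.07e-08) in wild-type and the log2 fold change in Jak2V617F cells was -1.44 (adjusted p = 9.54e-06). For Ikbke they were -0.76 (adjusted p = 3.68e-08) and -0.40 (adjusted p = 2.91e-04).

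Of the 3 regulators of G protein signalling, which shorten the activity of G proteins, Rgs1 and Rgs2 fell and Rgs18 was not called. Rgs1 ran from 148 to 276 CPM (median 193) in wild-type vehicle and from 38.7 to 83.1 CPM (median 60.8) in wild-type pegIFN libraries. In Jak2V617F cells it ran from 110 to 229 CPM with vehicle and from 56.0 to 106 CPM with pegIFN, so the treatments did not overlap in either genotype. Its log2 fold change with pegIFN was -1.77 (SE 0.22, adjusted p = 1.12e-06) in wild-type and -1.12 (SE 0.22, adjusted p = 3.52e-04) in Jak2V617F cells. For Rgs2 they were -1.89 (adjusted p = 1.06e-05) and -1.28 (adjusted p = 0.00101).

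Cd55, which dissociates complement convertases on the cell surface, rose in Jak2V617F cells (0.47, adjusted p = 0.00512), with 0.26 (adjusted p = 0.085) in wild-type cells. A short row inside Cdc73 (ENSMUSG00000078284, chr1:143605162-143606608) had 302 counts over the wild-type vehicle and 15 over the wild-type pegIFN group, with a log2 fold change of -4.24 (SE 1.42, adjusted p = 0.0147). It lies within the longer Cdc73 row, whose log2 fold change was -0.11 (adjusted p = 0.102), so reads may be split between them.

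The interaction, the test of whether the genotype difference depends on treatment, called 0% of genes and 0 of 93 members by edgeR. At an unadjusted p under 0.05 it had 12 of 93 members (12.9%), beside 8.43% of all genes, and DESeq2 called 0 members and 47 genes. With the mouse as a block, 6 members (6.45%) were called, beside 3.33% of all genes. These were Rgs1 (0.67) and Rgs2 (0.63), whose fall with pegIFN was smaller in Jak2V617F cells, Slc45a3 (-1.79), whose rise was smaller, Atp2b4, a plasma membrane calcium pump (0.40), Aspm, a spindle pole protein (-0.46), and AC162449.1 (4.64, a fitted value that rests on 5 and 0 counts in the Jak2V617F groups). Their adjusted p ran from 0.00663 to 0.0458 with the block and from 0.38 to 0.681 without it.

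CD45 acts on Src family kinases, removing an inhibitory phosphate from their tail, and Csk with its partners puts it back. Of 17 such kinases and phosphatases outside the interval, 16 were tested. Under vehicle 0 were called between the genotypes by edgeR without the block. Under pegIFN 2 were higher in Jak2V617F, Ptpn2 (0.23, adjusted p = 0.0341) and Fgr (1.47, adjusted p = 0.0255), and Ptpra was lower (-0.25, adjusted p = 0.00625). Without the 2 libraries that stand apart Ptpra was called (-0.25, adjusted p = 0.0161), and Ptpn2 (0.20, adjusted p = 0.0781) and Fgr (1.07, adjusted p = 0.102) were not. Jak2 was lower in the Jak2V617F libraries of 12 of 12 mice, with log2 fold changes of -0.22 (adjusted p = 0.0331) and -0.30 (adjusted p = 0.0091). Of 4 genes reported to differ between C57BL/6J and C57BL/6N mice, Nnt, the mitochondrial transhydrogenase gene that is truncated in C57BL/6J, was higher in Jak2V617F cells in 12 of 12 mice. Its log2 fold change was 0.43 (SE 0.08, adjusted p = 0.00254) under vehicle and 0.52 (SE 0.08, adjusted p = 3.36e-04) under pegIFN. Wdfy1 was called under pegIFN (0.27, adjusted p = 0.0401; 0.26, adjusted p = 0.0565, without the 2 libraries that stand apart). Ide and Entpd4 were not called in either comparison without the block. With the mouse as a block Ide was called under pegIFN (adjusted p = 0.0013), and it was higher in Jak2V617F cells in 1 of 12 mice. The labels give both donors as C57Bl/6N.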

How the data were processed

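Expected counts per gene for 24 libraries were made and deposited by the authors. The submitters' processing notes name cutadapt 1.11, STAR 2.5.2a, RSEM 1.2.30 and GRCm38, and the annotation release is not given in the sources used here. RSEM shares reads among genes, so 16.8% of values are not whole, and they were rounded. Neither reads nor alleles were examined.

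All 15879 genes passing filterByExpr (minimum count 10) were tested with edgeR 4.0.16 in R 4.3.3: TMM factors, 4 group means, robust quasi-likelihood tests, p-values adjusted by Benjamini-Hochberg, threshold 0.05. The fit was tested on simulated counts. CPM use totals scaled by TMM factors, and the unscaled totals ran from 24.6 to 39.7 M counts. The labels do not say that libraries of a group came from separate donors, so p-values measure the spread between hosts. Libraries of a group differed beyond counting noise (lowest chi-square over its degrees of freedom 6.41).

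The number in the library names pairs both genotypes of a mouse. Over 12 pairs, deviations from group means correlated at 0.119 to 0.416 (median 0.284), and 11 matched best with their own partner. Alternatives were DESeq2 1.42.0, RLE factors, no filter, only the groups compared, the mouse as a block, other widths and count minimums, each library left out, and fits without the 2 libraries that stand apart or their mice.

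Named genes were Ptprc, up to 8 members in each direction called in both genotype comparisons, the 2 nearest on each side, up to 4 called in the interaction (0 were), the 3 largest changes in each direction with pegIFN in wild-type cells, up to 2 of each gene group by smallest p in the genotype comparisons, and related genes called in both. Uchl5, Ddx59, AC130277.1, Rgs2, Atp2b4, Aspm, Nucks1, Ptpn7, Ptpn2, Fgr, Ptpra, Kdm6a, Rfx3, Wdfy1, Ide and Entpd4 were named after their values were seen. The members, gene lists and related genes were chosen with earlier results of these data known. Promoters are from RefSeq, and overlaps from GENCODE M21. One member is not reported here by name.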

Additional observations from a re-analysis of the deposited data

Results flagged for a closer look

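In 8 of 116 groups of 6 libraries (4 groups of each of 29 named genes), the highest library lay far from the other 5. Chance alone flags about 1 group in 20. Values are in CPM, with the range of the other 5 libraries. Rnpep was 49.6 in wild-type vehicle replicate 4 (26.8 to 31.5), and Ctse was 97.5 in Jak2V617F pegIFN replicate 1 (24.6 to 39.1). These are the libraries that stand apart on Xist. Other high values were in wild-type vehicle replicate 3: Nek7 at 61.2 (52.5 to 54.5), Rgs18 at 255 (172 to 202) and Slc45a3 at 12.3 (1.94 to 3.11). Slc45a3 was also high in the Jak2V617F library of the same mouse, at 11.5 (1.71 to 5.27). In Jak2V617F vehicle replicate 4, Prelp, an extracellular matrix proteoglycan, was 3.00 (0.035 to 1.1). The short row inside Cdc73 was 0.498 in wild-type pegIFN replicate 6 and 0 in the other 5.

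The interaction was called for 6 of 93 members (6.45%) once the mouse entered the model as a block, beside 3.33% of all genes. The interaction log2 fold changes were 0.67 for Rgs1, 0.63 for Rgs2, -1.79 for Slc45a3, 0.40 for Atp2b4, -0.46 for Aspm and 4.64 for AC162449.1. None of the 6 was called without the block, by edgeR or by DESeq2. The value of AC162449.1 rests on 5 counts over the Jak2V617F pegIFN group and 0 over the Jak2V617F vehicle group.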

How the results depend on the processing

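With the replicate block by mouse, counts of called members rose from 26 to 41 under vehicle and from 16 to 32 under pegIFN. Shares over all genes rose as well, from 12.7% to 31.1% and from 8.59% to 24.6%. In both comparisons the count rose from 12 to 20, and the share over all genes from 3.29% to 13.3%. In the interaction the count rose from 0 to 6, and the share over all genes from 0% to 3.33%. Ptprc was called under vehicle with the block (-0.24, adjusted p = 0.00606). All 12 members called in both were called with the block. Within 5 Mb of Ptprc, 46 members were tested. Between the genotypes 16 (34.8%) were called under vehicle and 13 (28.3%) under pegIFN, beside 12.7% and 8.59% of all genes. With pegIFN 24 (52.2%) were called in wild-type and 19 (41.3%) in Jak2V617F cells, beside 56.8% and 44% of all genes. Leaving out each library gave 20 to 31, 14 to 21 and 11 to 14 members under vehicle, under pegIFN and in both, beside 5.81% to 16.5%, 3.70% to 12.8% and 1.34% to 5.55% of all genes. Of the 12, all were called in both in each of the 24 fits, except Syt2 in 22 and Kdm5b in 21. Fitting only the groups compared called 18 of 93 under vehicle, 20 of 87 under pegIFN and 10 in both (7.52%, 10.8% and 2.62% of all genes), with 8 of the 12. DESeq2 called 29 of 92, 23 of 94 and 15 (18%, 11.9% and 5.24% of all genes with an adjusted p) and kept the 12. Directions turned only for differences that were not called. Without the 2 libraries that stand apart, 2310009B15Rik was -0.0252 under pegIFN (-0.023 without their mice), and under vehicle Cdc73 (ENSMUSG00000078284) was 0.0931 and Cd55 -0.0105. With each library left out, log2 fold changes under vehicle ran from -0.7631 to 0.2529 for that Cdc73 row, from -0.1482 to 0.9976 for Slc45a3 and from -0.0399 to 0.1633 for Cd55. Under pegIFN they ran from -4e-04 to 0.0735 for Nek7, from -0.0347 to 0.1525 for 2310009B15Rik, from -0.0177 to 0.2231 for Lax1 and from -0.0107 to 0.0325 for Ppp1r15b. The cause was not tested. Over all alternatives for named genes, a call was gained in 21 and lost in 45, among them 13 of Slc45a3 under pegIFN and 11 each of Fam72a and Rassf5 under vehicle. Low counts limit AC162449.1, Etnk2 and Syt2.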
